A study of Homo sapiens with 12 samples.

Results

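Replication-dependent histone genes encode the core histones H2A, H2B, H3 and H4, around which DNA is wound in nucleosomes, and the linker histone H1. Their members were taken as every probe set whose only platform gene symbol starts with H1-, H2AC, H2BC, H3C, H4C, HIST1 or HIST2, with the brightest probe set of each gene. This gave 63 genes of the 18417 measured, namely 9 of H1, 14 of H2A, 16 of H2B, 8 of H3, 13 of H4 and 3 other symbols. The other symbols were the antisense RNA H1-10-AS1 and the pseudogenes H1-9P and H2BC19P. The prefix also took in genes that are not replication-dependent in the strict sense. Among these were the germ-line linker histones H1-7 and H1-8 and the polyadenylated H1-10. H1-6, H2AC1 and H2BC1 are known mainly from testis. A further 20 probe sets were assigned to a histone gene together with other symbols and were kept out of the counts.

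RNA was measured on Affymetrix human gene arrays in cells labelled MDA-MB-231 1833, a bone-seeking subline of a human breast cancer line. By the labels, shHMGA2 cells (3 arrays) expressed an shRNA against HMGA2 from the lentiviral vector pLKO.1 and were kept in puromycin. TET1 cells (2 independent arrays) carried an inducible Flag-tagged Tet1 and HOXA9 cells (2 independent arrays) an inducible HOXA9, each in a pLVX-TRE3G lentiviral vector together with the Tet-On 3G regulator. Both inducible lines were selected in puromycin and G418 and grown in Tet System Approved serum. The inducer, its dose and its duration are not given in the sources used here. Control cells (3 arrays) have no vector or selection in their labels. The labels call the samples biological replicates and do not say whether each line came from 1 clone or from a pool. In the source names, though not in the titles, the TET1 and HOXA9 samples have the number of a different subline.

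Most of these genes stand in clusters, the largest on the short arm of chromosome 6 and a smaller one on chromosome 1. They are transcribed in S phase under the coactivator NPAT, when new DNA has to be packed. Their mRNAs end in a stem-loop bound by SLBP, after cleavage guided by the U7 snRNP, and carry no poly(A) tail. The whole-transcript labelling named in the labels primes at random sites and does not need such a tail. In other assays a histone mRNA with a poly(A) tail is known from differentiated or transformed cells, and the arrays cannot tell the forms apart. Copies of 1 core histone are nearly identical in their coding sequence, so a probe set may also read RNA of a sister gene. The probe sets of H4C14 and H4C15 held identical values, which leaves 62 distinct measurements. By the RefSeq annotation, 49 members lay on chromosome 6, 8 on chromosome 1, 3 on chromosome 3, 2 on chromosome 12 and 1 on chromosome 17.

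The arrays fell into 2 sets. Correlations over all probe sets were 0.986 to 0.998 within the shHMGA2 and control arrays, 0.993 to 0.997 within the TET1 and HOXA9 arrays, and 0.945 to 0.966 between the sets. Array set, parent subline, serum and selection therefore cannot be told apart from the construct wherever TET1 or HOXA9 cells are set against control. The TET1 transcript was at 8.97 ± 0.29 in shHMGA2 (log2, SD, n = 3), 7.07 ± 0.13 in the arrays labelled TET1 and 7.30 ± 0.14 in those labelled HOXA9 (n = 2 each), against 6.56 ± 0.11 in control (n = 3). It was no higher in the arrays labelled TET1 than in those labelled HOXA9, so it does not check that label, and whether its probes see the introduced copy is not known. HMGA2 shares its probe set with ELAC2, which was at 8.81 ± 0.29 in shHMGA2, 10.42 ± 0.01 in TET1 and 10.41 ± 0.00094 in HOXA9, against 9.56 ± 0.09 in control. No probe set carries the symbol HOXA9 alone. The mean of the MDA-MB-231 markers VIM, CD44, EGFR, CAV1, AXL, MSN, SPARC and ZEB1 was 11.11 to 11.35 in shHMGA2 arrays, 11.75 to 11.80 in TET1 and 11.71 to 11.77 in HOXA9, against 11.54 to 11.55 in control. Markers held to be low or absent in this line (ESR1, PGR, EPCAM, CDH1, GATA3 and KRT8) averaged 7.35 to 7.44 in shHMGA2 arrays, 7.72 to 7.74 in TET1 and 7.76 to 7.81 in HOXA9, against 7.50 to 7.52 in control, and among them KRT8 was at 11.73 in control.

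The promoters show how the classes differ in sequence. RefSeq promoter windows, 250 bases before the annotated start in GRCh38.p14, were available for 55 of the 63 members. Both strands were searched for 4 motifs. The TATA box was spelled TATAAA. The box bound by NF-Y was spelled CCAAT. The octamer bound by OCT1 was spelled ATTTGCAT. The core of the H4 element bound by HINFP was spelled GGTCCG. Matches of different motifs were allowed to overlap. The octamer stood in 1.66% of all 27305 promoters, in 13 of 16 H2B and 10 of 13 H2A promoters, and in 0 of 9 H1, 0 of 6 H3 and 0 of 11 H4 promoters. The letters GGTCCG stood in 9.33% of all promoters and in 10 of 11 H4 promoters, against 1 promoter in each other class. CCAAT stood in 33.0% of all promoters, and in 8 of 9 H1, 13 of 13 H2A, 16 of 16 H2B, 6 of 6 H3 and 3 of 11 H4 promoters. TATAAA stood in 11.1% of all promoters, and in 4 of 9 H1, 10 of 13 H2A, 12 of 16 H2B, 4 of 6 H3 and 5 of 11 H4 promoters. A match is a description of letters in these windows, and the windows of divergent pairs share sequence.

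The windows below are those of the members the shHMGA2 comparison turns on, H4C4, H2BC7, H4C5 and H2BC26, with the neighbours H2BC6 and H2BC8, which did not pass, beside them. They are written 5′ to 3′ toward the start of the gene, and capitals mark the 4 motifs on either strand.
H2BC6, chr6:26183511-26183760, plus strand: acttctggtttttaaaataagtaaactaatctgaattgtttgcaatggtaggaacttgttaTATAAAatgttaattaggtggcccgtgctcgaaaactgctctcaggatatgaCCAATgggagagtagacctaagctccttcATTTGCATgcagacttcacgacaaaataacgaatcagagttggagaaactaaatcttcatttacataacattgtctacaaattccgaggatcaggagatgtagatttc
H4C4, chr6:26189113-26189362, minus strand: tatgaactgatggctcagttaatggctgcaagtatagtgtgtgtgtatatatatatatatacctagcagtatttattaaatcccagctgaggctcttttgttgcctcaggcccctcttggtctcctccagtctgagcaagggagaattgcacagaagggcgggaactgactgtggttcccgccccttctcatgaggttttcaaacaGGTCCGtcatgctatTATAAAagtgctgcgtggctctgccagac
H2BC7, chr6:26199266-26199515, plus strand: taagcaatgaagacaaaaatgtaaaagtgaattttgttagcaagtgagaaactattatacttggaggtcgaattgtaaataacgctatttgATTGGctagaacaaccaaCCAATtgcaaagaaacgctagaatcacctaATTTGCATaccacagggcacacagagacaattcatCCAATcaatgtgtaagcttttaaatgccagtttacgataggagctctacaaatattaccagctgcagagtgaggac
H4C5, chr6:26204360-26204609, plus strand: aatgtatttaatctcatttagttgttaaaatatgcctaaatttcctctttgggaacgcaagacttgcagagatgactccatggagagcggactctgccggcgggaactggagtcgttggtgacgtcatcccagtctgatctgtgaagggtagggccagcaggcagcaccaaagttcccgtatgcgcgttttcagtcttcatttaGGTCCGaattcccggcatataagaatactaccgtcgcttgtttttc
H2BC8, chr6:26216689-26216938, minus strand: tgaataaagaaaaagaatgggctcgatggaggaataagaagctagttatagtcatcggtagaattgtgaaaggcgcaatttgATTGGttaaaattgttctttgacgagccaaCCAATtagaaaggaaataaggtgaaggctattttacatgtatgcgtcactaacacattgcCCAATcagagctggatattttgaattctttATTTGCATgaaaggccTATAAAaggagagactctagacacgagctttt
H2BC26, chr1:228457853-228458102, plus strand: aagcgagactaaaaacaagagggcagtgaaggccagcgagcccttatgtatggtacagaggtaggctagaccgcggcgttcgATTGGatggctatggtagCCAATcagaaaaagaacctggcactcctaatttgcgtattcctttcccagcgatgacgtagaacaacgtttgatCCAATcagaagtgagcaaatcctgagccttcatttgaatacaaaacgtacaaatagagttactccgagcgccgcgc
H2BC7 has the octamer and several CCAAT letters but no TATAAA, while its neighbours H2BC6 and H2BC8 have all 3. In H2BC8 the TATAAA letters lie close to the start, between the octamer and the start. In H2BC6 they lie far from the start, upstream of its CCAAT and octamer, and not where H2BC8 and H4C4 have them. H4C4 and H4C5 both hold GGTCCG, and of the pair only H4C4 holds TATAAA, 29 bases before its start. The H4C5 window holds the letters tataag near its start, which the search did not count. Of the 4 motifs, H2BC26 on chromosome 1 has CCAAT letters alone. Its window holds the letters atttgcgt and atttgaat, near the octamer spelling, which the search did not count. H2BC26 is transcribed away from H2AC25, with which its window shares 229 bases.

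Deposited values of the members averaged 5.10 to 13.56 over the 10 arrays, with a median of 7.83 (log2). A level is called dim here where a group mean lies under the 30th percentile of all probe sets, 6.26, a level at which signal and background cannot be told apart without detection calls. Dim in every group were H2AC8, H2BC10 and H4C7, and 14 members were dim in at least 1 group. The other 60 members were above that level in 1 group or more. Values of different probe sets depend on their probes and give no order of RNA amounts between genes.

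The brightest probe set of each class had group SDs of at most 0.19. H1-4, a main linker histone of dividing cells, was at 13.33 ± 0.01 in shHMGA2 (n = 3), 13.95 ± 0.01 in TET1 and 13.93 ± 0.00 in HOXA9 (n = 2 each), against 13.29 ± 0.03 in control (n = 3). H4C3 was at 11.90 ± 0.10, 13.10 ± 0.02 and 13.07 ± 0.07 in the same groups, against 11.90 ± 0.05 in control. H2BC12 was at 12.70 ± 0.06, 11.66 ± 0.10 and 11.63 ± 0.19, against 12.43 ± 0.10 in control. H3C2 was at 12.12 ± 0.08, 12.63 ± 0.06 and 12.59 ± 0.08, against 12.14 ± 0.10 in control. H2AC20 was at 11.37 ± 0.06, 12.21 ± 0.01 and 12.19 ± 0.15, against 11.40 ± 0.12 in control. In both inducible lines H1-4, H4C3, H3C2 and H2AC20 lay above every control array and H2BC12 below, while in shHMGA2 only H2BC12 among the 5 stood clear of control.

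Cells with an shRNA against HMGA2, a chromatin protein of embryonic and tumour cells, were set against control. Both groups lie in 1 array set. The control labels give no vector or selection, so these cannot be told apart from the shRNA here. Depletion of HMGA2 could be read only on the probe set shared with ELAC2. A few histone genes changed by large amounts and most did not pass the test. Of 63 members 9 were higher (14.3%) and 5 lower (7.94%) at a limma adjusted p under 0.05 over all genes, while 13.6% of all genes were called higher and 12.6% lower. The share of members called higher was near that of all genes. At an unadjusted p under 0.05 there were 24 members, and the share of all genes at that threshold was not counted. After quantile normalization over all arrays 11 members were higher and 5 lower (12.8% and 14.2% of all genes), and with equal array medians 8 and 5 (11.4% and 14.9%). A log2 difference of at least 1 was seen in 4 members (6.35%) and in 1.48% of all genes. The median member differed by 0.00, and the median gene by -0.03. Members called higher were 4 of H2B (H2BC7, H2BC26, H2BC11 and H2BC12), 2 of H4 (H4C5 and H4C4), 1 of H3 (H3C10), 1 of H2A (H2AC25) and the pseudogene H2BC19P. Members called lower were H2BC1 and H2BC3 of H2B, H3C12 and H3C11 of H3, and H4C1 of H4. Among the 9 H1 genes 0 passed, with differences of -0.31 to 0.15.

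H2BC7, which encodes a core histone H2B, was at 9.28, 9.35 and 9.62 in shHMGA2 arrays, 5.04 and 5.16 in TET1 and 5.04 and 5.02 in HOXA9, against 5.45, 5.24 and 5.37 in control. It was high in shHMGA2 alone, and dim in each other group. The difference was 16.7-fold (log2 fold change 4.06, SE 0.09, limma adjusted p = 7.3e-11). H4C5, which encodes H4, was at 9.28, 8.94 and 9.22 in shHMGA2, 5.88 and 5.95 in TET1 and 6.06 and 5.69 in HOXA9, against 5.78, 6.11 and 6.11 in control. It too was high only in shHMGA2 and dim elsewhere, with a difference of 8.83-fold (log2 fold change 3.14, SE 0.12, limma adjusted p = 9.7e-09). H4C4, a further H4 gene, was at 8.44, 8.22 and 8.39 in shHMGA2, 7.23 and 7.04 in TET1 and 6.96 and 7.14 in HOXA9, against 6.46, 5.94 and 6.63 in control. Its shHMGA2 arrays were above all others, 4.02-fold over control (log2 fold change 2.01, SE 0.14, limma adjusted p = 2.1e-06). Against the dim control levels of H2BC7 and H4C5 the folds are those of the measured values and may understate the change.

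These 3 genes are close neighbours. In the RefSeq order of protein genes on chromosome 6 they stand as H2BC6, H4C4, H3C4, H2AC7, H2BC7, H4C5, H2BC8 and H2AC8. The measured genes on either side did not pass. H2BC6 was at -0.09 (95% confidence interval -0.23 to 0.05) and H2BC8 at 0.00 (-0.12 to 0.12). H2AC8, dim in every group, was at 0.06 (-0.11 to 0.23). H3C4 and H2AC7, which lie between H4C4 and H2BC7, have no probe set of their own. A probe set assigned to both was at 8.99 ± 0.17 in shHMGA2, against 7.46 ± 0.07 in control (SD, n = 3 each, log2 fold change 1.53, adjusted p = 6.7e-06 in a limma fit over all probe sets). After H2AC8 comes H3C6, which also has no probe set of its own. A probe set assigned to H3C11 and H3C6 was at 5.70 ± 0.13 in shHMGA2, against 4.72 ± 0.05 in control. Both levels were dim, and the log2 fold change was 0.98 (adjusted p = 2.8e-05 in the same limma fit). H3C11 alone was at -0.23, and which gene the shared probe set read was not tested. The plot of fold changes in gene order shows the stretch between members near 0. Among the 18 other measured protein genes within the histone stretch of chromosome 6, 3 were higher and 7 lower in shHMGA2, with differences of -0.66 to 0.49. Of all genes 13.6% were called higher and 12.6% lower.

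**Figure D1:**
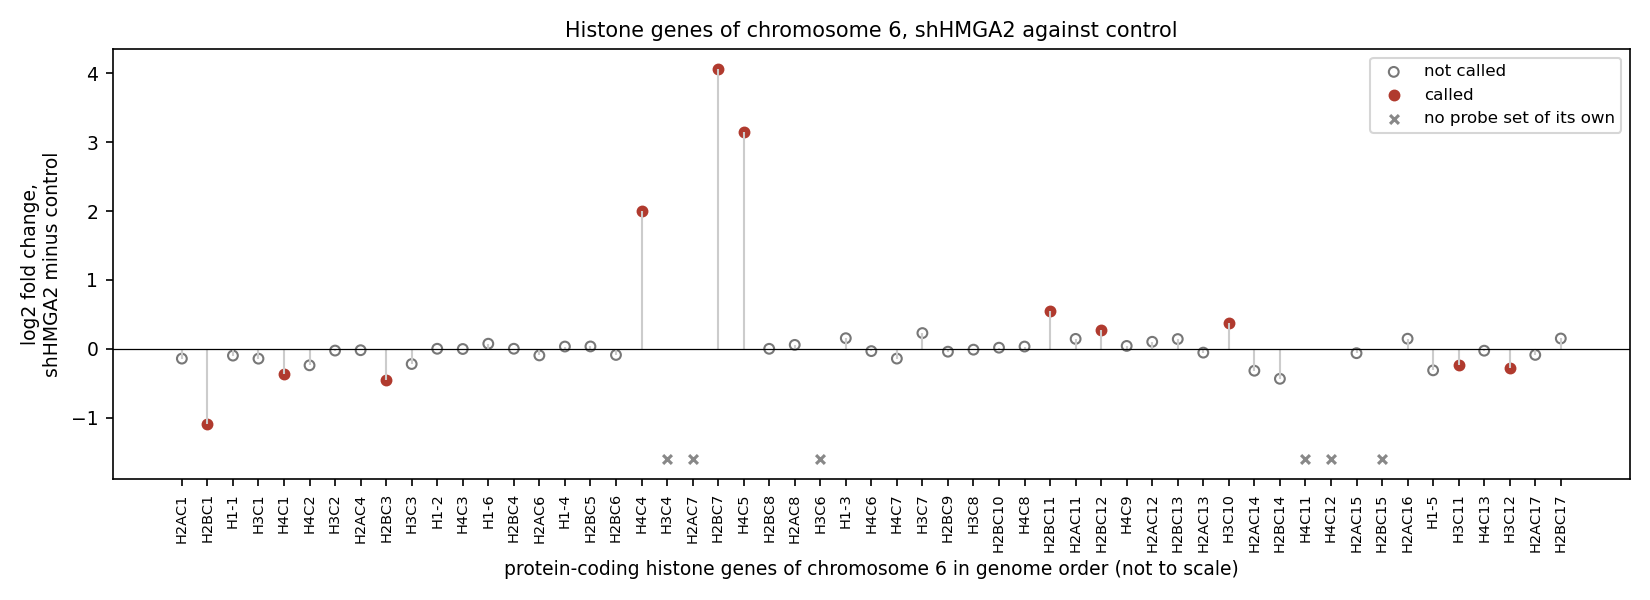
Log2 fold change of shHMGA2 over control (vertical axis) for the histone protein genes of chromosome 6 in genome order, not to scale. Filled points passed the test, open points did not, and crosses mark genes with no probe set of their own. H4C4, H2BC7 and H4C5 stand at 2.01, 4.06 and 3.14, between H2BC6 at -0.09 and H2BC8 at 0.00.

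The remaining rises were smaller. H2BC26, an H2B gene of chromosome 1, was at 6.73, 6.74 and 7.18 in shHMGA2, against 6.22, 6.40 and 5.96 in control (1.61-fold, log2 fold change 0.69, limma adjusted p = 0.0019). Its divergent partner H2AC25, which encodes H2A, was at 6.51, 6.52 and 6.74 in shHMGA2, against 5.97, 6.04 and 6.12 in control (log2 fold change 0.55, limma adjusted p = 0.00027). For both genes of this pair the groups did not overlap, and the control means were under the dim level. H2BC11 was at 7.36, 7.50 and 7.35 in shHMGA2, against 6.66, 6.94 and 6.96 in control (1.47-fold, limma adjusted p = 0.00053). The pseudogene H2BC19P was at 7.27, 7.17 and 7.97 in shHMGA2, against 6.62, 6.21 and 6.64 in control (1.97-fold, limma adjusted p = 0.0034), with 1 shHMGA2 array above the rest. H3C10 (log2 fold change 0.38) and H2BC12 (0.27) rose as well.

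H2BC1, an H2B gene known from testis, fell most. It was at 6.70, 6.72 and 6.65 in shHMGA2, against 7.52, 7.94 and 7.90 in control, which is 2.14-fold lower (log2 fold change -1.09, SE 0.10, limma adjusted p = 1.1e-05). The shHMGA2 arrays lay close together and below all controls. H2BC3 was at 8.57 ± 0.21 in shHMGA2, against 9.03 ± 0.09 in control (log2 fold change -0.46, limma adjusted p = 0.0030). H4C1, H3C12 and H3C11 differed by -0.37, -0.27 and -0.23. Some calls were lost when 1 array was left out. H4C1 was not called without control replicate 3 (-0.25), shHMGA2 replicate 2 (-0.38) or shHMGA2 replicate 3 (-0.26). H3C12 was not called without control replicate 1, 2 or 3 (-0.28, -0.27 and -0.27), shHMGA2 replicate 3 (-0.18) or either TET1 replicate (-0.27). H2BC12 was not called as higher without control replicate 1 or 3 (0.22 and 0.26) or shHMGA2 replicate 2 or 3 (0.29 and 0.23), nor with equal array medians (0.24, limma adjusted p = 0.060). Only 3 members were lower without control replicate 3 or without shHMGA2 replicate 3.

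**Figure D2:**
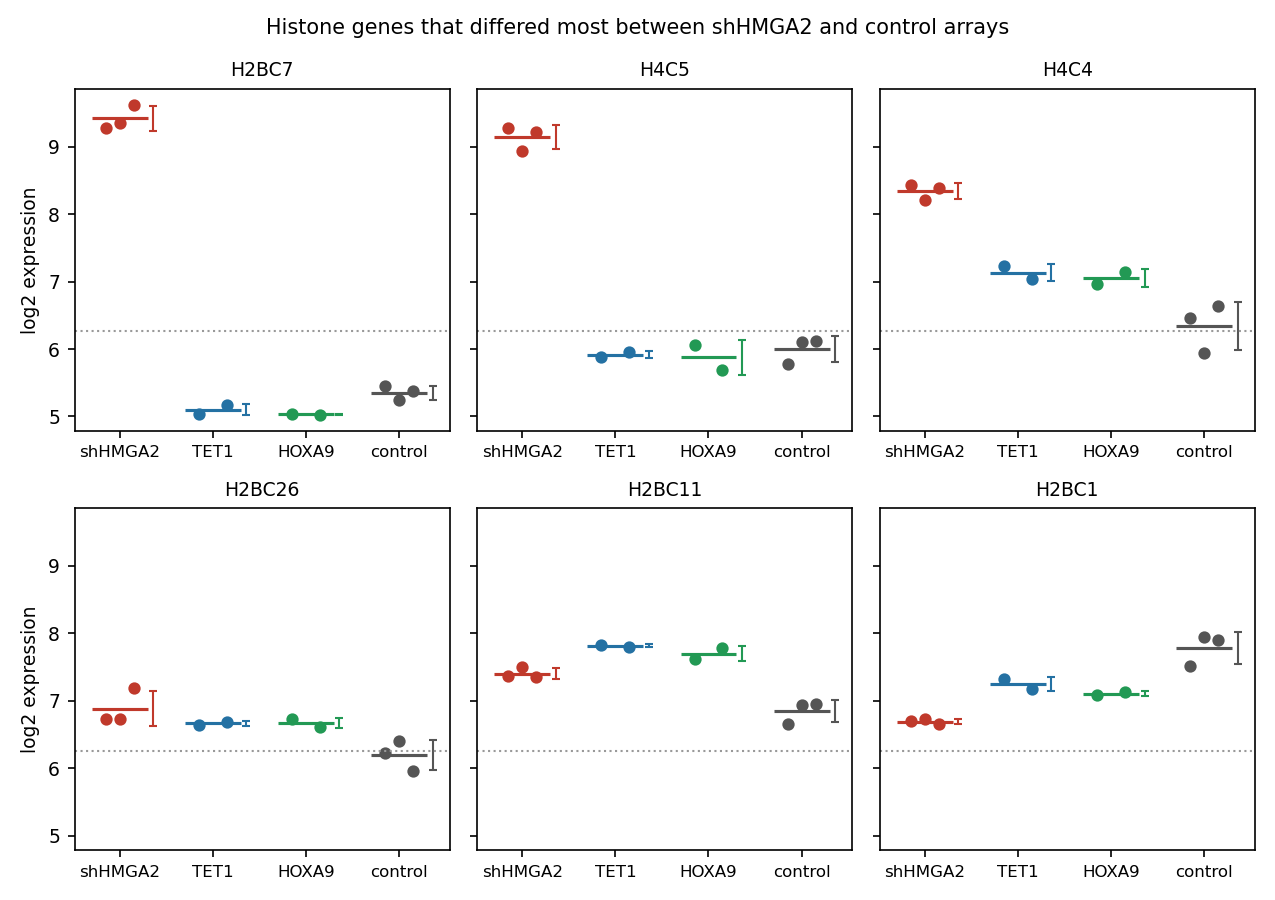
Deposited log2 value in each of the 10 arrays, as points by group, for members that differed most between shHMGA2 and control, with the group mean as a line, the SD as a bar beside it and the dim level as a dotted line. For H2BC7, H4C5 and H4C4 the shHMGA2 points lie above every other array, and for H2BC1 below every other array.

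Genes known from other cells were also read in this contrast. Of 9 genes known from HEK293, an embryonic kidney line (CDH6, LHX1, PAX2, TFAP2B, HOXD10, NEFM, NEFL, CITED1 and WT1), 5 were higher in shHMGA2 and 0 lower. The mean of the list was 7.42 to 7.63 in shHMGA2 arrays, 7.09 to 7.15 in TET1 and 6.98 to 7.11 in HOXA9, against 6.59 to 6.69 in control. With the deposited values 6 of these genes were also higher and 1 lower in TET1, and 5 and 2 in HOXA9. Of all genes 13.6% were called higher and 12.6% lower in shHMGA2, 53.9% and 23.2% in TET1, and 54.0% and 21.6% in HOXA9. After quantile normalization 4 of the list were higher and 0 lower in shHMGA2, 3 and 3 in TET1, and 2 and 3 in HOXA9. With equal array medians the counts were 5 and 0, 4 and 3, and 2 and 3. The median difference of the list was 0.25 in shHMGA2, 0.63 in TET1 and 0.55 in HOXA9 as deposited. It was 0.19, 0.09 and -0.0076 after quantile normalization. CDH6 and TFAP2B were dim in both groups, at 5.48 and 5.94 in shHMGA2, against 5.60 and 6.05 in control. On chromosome 9, CDKN2A, CDKN2B and MTAP, from a deletion reported for MDA-MB-231, and their neighbour KLHL9 were all called higher, with a mean of 8.69 to 9.15 in shHMGA2 arrays, against 6.64 to 6.83 in control. Of these 4 genes 0 were higher in TET1 or HOXA9, at means of 6.69 to 6.70 and 6.55 to 6.71. Of the 8 MDA-MB-231 markers 6 were lower. The part of other cells in the histone differences was not tested. Less RNA per cell and fewer cells of a type cannot be told apart in such samples.

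Histone values of TET1 and HOXA9 cells were next set against control. Both comparisons share the control arrays and cross the array sets. In TET1 arrays 34 of 63 members were higher (54.0%) and 14 lower (22.2%), while 53.9% of all genes were called higher and 23.2% lower. In HOXA9 arrays 34 were higher (54.0%) and 16 lower (25.4%), while 54.0% of all genes were called higher and 21.6% lower. These shares of members were close to those of all genes. Log2 differences of at least 1 were seen in 10 members in TET1 (15.9%) and 11 in HOXA9 (17.5%), and in 8.74% and 7.47% of all genes. The median member was 0.33 higher in TET1 and 0.36 higher in HOXA9, and the median gene 0.25 and 0.24.

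The split into higher and lower moved with the scaling. After 1 quantile normalization over all arrays, 26 members were higher and 23 lower in TET1, with 32.6% and 33.3% of all genes. In HOXA9 the numbers were 25 and 24, with 29.7% and 34.0% of all genes. With equal array medians 20 were higher and 28 lower in TET1, with 21.9% and 51.4% of all genes, and 18 higher and 27 lower in HOXA9, with 20.3% and 51.1%. The share of higher among called members was thus 70.8%, 53.1% and 41.7% in TET1 and 68.0%, 51.0% and 40.0% in HOXA9 under the deposited, quantile and equal-median values. Called in the same direction under all 3 were 20 members higher and 14 lower in TET1, and 18 higher and 15 lower in HOXA9. In shHMGA2, where the sets are not crossed, 8 higher and 5 lower members were called under all 3. The share of all genes called under all 3 was not counted, so these numbers have no background beside them.

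**Figure D3:**
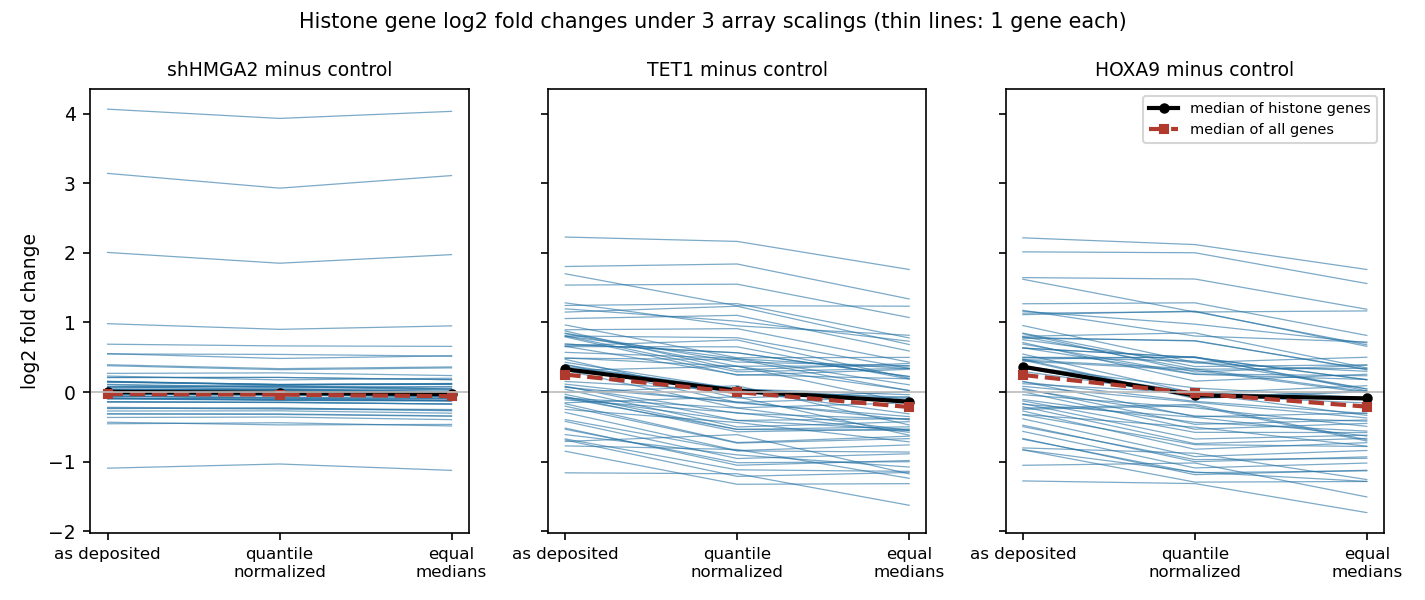
Log2 fold change against control of each histone gene (thin lines) with the deposited values, after quantile normalization and with equal array medians, with the median of histone genes (black) and of all genes (red, dashed). In TET1 the histone median moves with that of all genes, at 0.33, 0.02 and -0.14, against 0.25, -0.00060 and -0.22 for all genes, while in shHMGA2 the lines stay level.

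By class, most called members of H2A and H4 were higher with the deposited values. Of 14 H2A genes 8 were higher and 2 lower in TET1, and 8 and 3 in HOXA9. Among 13 H4 genes 9 were higher and 2 lower in both lines. H2B was divided, with 7 higher and 6 lower of 16 in TET1 and 7 higher and 7 lower in HOXA9. Its median was -0.04 in TET1 and -0.14 in HOXA9, against 0.35 and 0.41 for H2A and 0.49 and 0.55 for H4. Of 9 H1 genes 5 were higher and 2 lower in TET1, and 5 and 3 in HOXA9. Of 8 H3 genes 4 were higher and 1 lower in each line. Of the other symbols, H1-10-AS1 was higher in both lines and H2BC19P lower in TET1. These stand beside 53.9% of all genes higher and 23.2% lower in TET1, and 54.0% and 21.6% in HOXA9. The class directions moved with the scaling. With equal array medians H2A had 4 higher and 5 lower in each line, H4 5 and 4 in TET1 and 3 and 4 in HOXA9, H1 4 and 4 in each, H3 1 and 4 in TET1 and 2 and 3 in HOXA9, and H2B 5 and 9 in each. Of all genes 21.9% were then higher and 51.4% lower in TET1, and 20.3% and 51.1% in HOXA9. No difference between classes was tested.

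**Figure D4:**
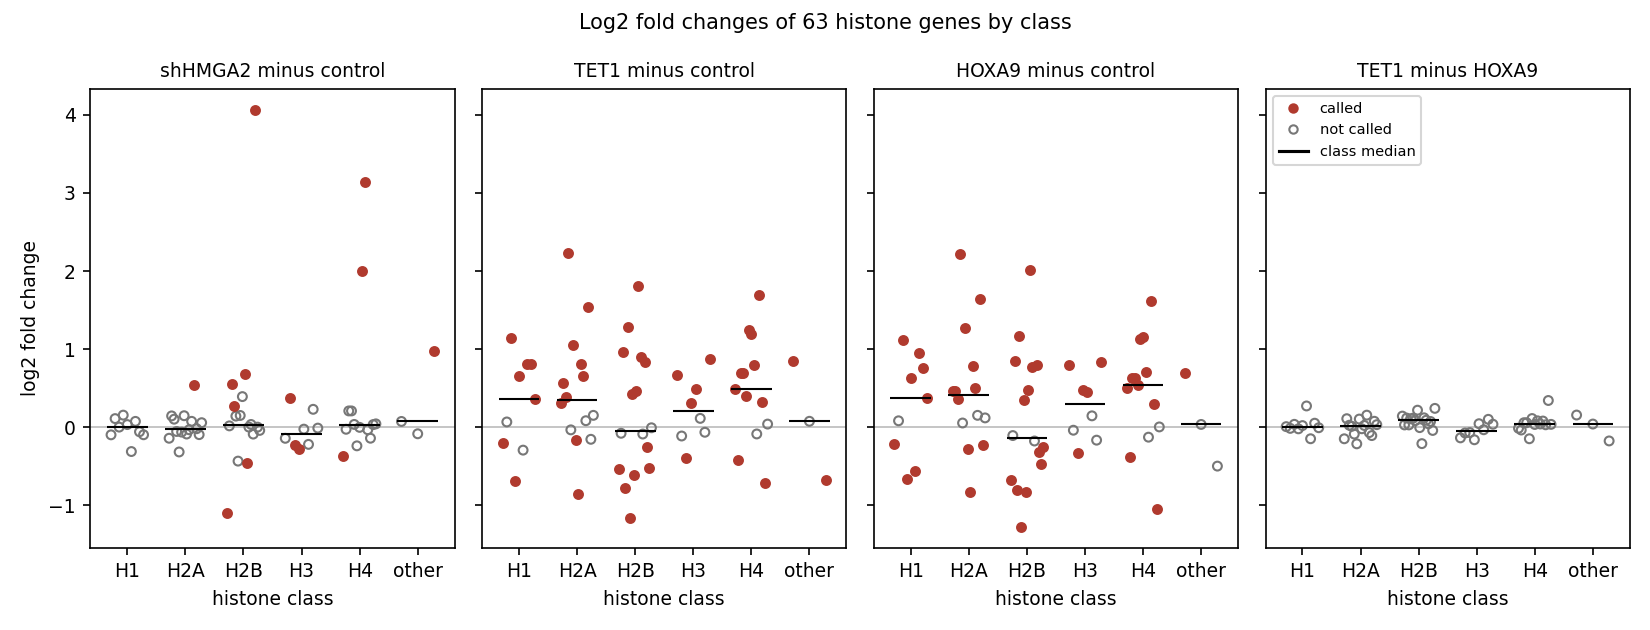
Log2 fold change of each member (points, filled where called) by class in the 4 comparisons, with the class median as a bar. In shHMGA2 most points lie near 0 with H2BC7, H4C5 and H4C4 apart, while in TET1 and HOXA9 the class medians lie between -0.14 and 0.55, and between TET1 and HOXA9 no point is filled.

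H2AC13, an H2A gene, was at 10.21 and 10.23 in TET1 and 10.13 and 10.29 in HOXA9, against 7.91, 8.09 and 7.99 in control. It was 4.68-fold higher in TET1 and 4.65-fold higher in HOXA9 (limma adjusted p = 1.4e-09 and 1.5e-09), and at 7.94 ± 0.07 in shHMGA2, among the controls. H2BC3 was at 10.85 and 10.81 in TET1 and 11.03 and 11.05 in HOXA9, against 8.92, 9.05 and 9.10 in control, 3.49-fold and 4.04-fold higher (limma adjusted p = 4.5e-08 and 2.6e-08). In shHMGA2 H2BC3 was at 8.57 ± 0.21, below control. H4C6 was at 7.99 and 7.86 in TET1 and 7.81 and 7.89 in HOXA9, against 6.23, 6.30 and 6.15 in control. Its control values were dim and its inducible lines were not, with log2 fold changes of 1.70 and 1.62 (limma adjusted p = 5.6e-09 and 7.7e-09).

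H2AC4 was at 10.27 and 10.25 in TET1 and 10.47 and 10.26 in HOXA9, against 8.62, 8.87 and 8.68 in control (log2 fold change 1.54 and 1.64). H2BC13 was at 8.53 and 8.39 in TET1 and 8.22 and 8.48 in HOXA9, against 7.17, 7.14 and 7.22 in control (1.28 and 1.17). H4C2, H4C3, H2AC15 and the linker histone H1-2 rose by 1.24, 1.20, 1.06 and 1.15 in TET1, and by 1.13, 1.16, 1.27 and 1.11 in HOXA9. In all of these the inducible lines lay above every control array. Under quantile normalization and equal array medians these 9 genes kept their calls, for H2AC13 in TET1 at 2.16 and 1.76 and for H4C6 at 1.24 and 1.23. H3C2 was higher by 0.49 in TET1 and 0.44 in HOXA9 as deposited. With equal array medians it was at 0.02 and -0.01 and was not called.

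Among lower members, H2BC14 was at 11.31 and 11.05 in TET1 and 10.96 and 11.17 in HOXA9, against 12.44, 12.48 and 12.11 in control. The log2 fold change was -1.16 in TET1 and -1.28 in HOXA9 (SE 0.22 each, limma adjusted p = 0.00038 and 0.00019), and shHMGA2 arrays spread from 11.47 to 12.43. H4C8 was at 9.84 and 9.72 in TET1 and 9.31 and 9.56 in HOXA9, against 10.46, 10.57 and 10.43 in control (log2 fold change -0.71 and -1.05). H2BC12 was at 11.59 and 11.73 in TET1 and 11.50 and 11.76 in HOXA9, against 12.34, 12.55 and 12.41 in control (-0.77 and -0.80). H2AC17 differed by -0.85 and -0.83. H2BC21 and H2BC1 were lower too (-0.61 and -0.54 in TET1, -0.83 and -0.68 in HOXA9). The pseudogene H2BC19P was lower by 0.67 in TET1 (log2 fold change -0.67), a call lost without either TET1 replicate (-0.65 and -0.69). The linker histone H1-3 differed by -0.69 and -0.67, in the arrays in which H1-2 and H1-4 were higher. H2BC7 was lower by small amounts, with log2 fold changes of -0.25 and -0.32 between levels that were all dim. H4C5 did not pass in either line (-0.09 and -0.13), and H4C4 was higher by 0.79 in TET1 and 0.71 in HOXA9, but by 0.24 and 0.16 after quantile normalization and by 0.33 and 0.26 with equal array medians, where it was not called. Among the 18 other protein genes of the chromosome 6 stretch, 11 were higher and 1 lower in TET1, and 12 higher and 0 lower in HOXA9. With the same deposited values 53.9% of all genes were called higher and 23.2% lower in TET1, and 54.0% and 21.6% in HOXA9. These 18 genes were not counted under the other scalings.

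**Figure D5:**
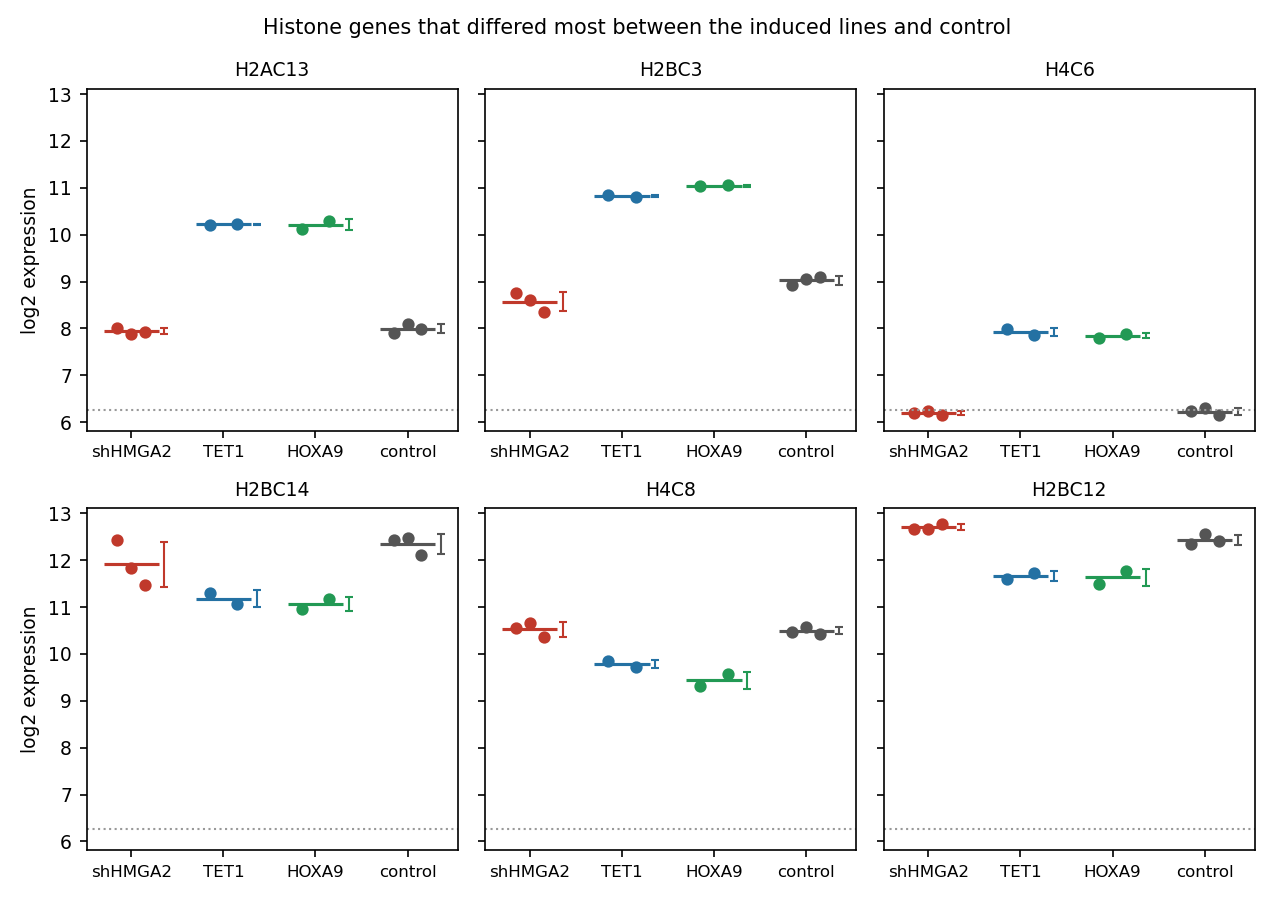
Deposited log2 value in each of the 10 arrays, as points by group, for members that differed most between the inducible lines and control, with the group mean as a line, the SD as a bar beside it and the dim level as a dotted line. TET1 and HOXA9 points lie together, above control for H2AC13, H2BC3 and H4C6 and below control for H2BC14 and H4C8.

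TET1 and HOXA9 arrays were compared within their set. No histone gene passed, with 0 higher and 0 lower by limma, while 0.114% of all genes were called higher and 0.320% lower. Likewise 0 members were called after quantile normalization (0.299% and 0.489% of all genes) and with equal array medians (0.114% and 0.309%). No member differed by 1 or more on the log2 scale, as 0.0706% of all genes did. At an unadjusted p under 0.05 there were 2 members of 63, and the share of all genes at that threshold was not counted. H4C8 was at 9.84 and 9.72 in TET1, against 9.31 and 9.56 in HOXA9 (log2 fold change 0.34, 95% confidence interval 0.10 to 0.58, limma adjusted p = 0.29). H2BC9 was 0.24 higher (0.05 to 0.43, limma adjusted p = 0.40). Differences over all members were -0.21 to 0.34 with a median of 0.04. Precision differed between members, with a 95% confidence interval of -0.71 to 0.36 for H2BC19P and of -0.11 to 0.15 for H1-4.

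The genes that make and finish histone mRNA, and 3 further lists, were examined beside the members. Their counts stand beside 13.6% of all genes higher and 12.6% lower in shHMGA2, 53.9% and 23.2% in TET1, and 54.0% and 21.6% in HOXA9. After quantile normalization these shares were 32.6% and 33.3% in TET1 and 29.7% and 34.0% in HOXA9, and with equal array medians 21.9% and 51.4%, and 20.3% and 51.1%. Of 29 genes for transcription and 3′ processing of histone mRNA 27 were measured. In shHMGA2, 8 were higher and 1 lower, while 13.6% and 12.6% of all genes were. Higher were ERI1, an exonuclease that trims histone mRNA ends (log2 fold change 0.39), the Sm proteins SNRPE (0.38) and SNRPD3 (0.29), and HINFP, the factor of H4 promoters (0.30), among others. SYMPK, a scaffold of the cleavage complex, was lower by 0.22 (log2 fold change -0.22). SLBP was at -0.06 and NPAT at 0.20 (limma adjusted p = 0.052), and neither passed. In TET1 9 were higher and 10 lower, and in HOXA9 9 and 9. NPAT was higher by 0.34 and 0.22. The cap-binding NCBP1 was lower (-0.70 and -0.63), as was SYMPK (-0.57 and -0.50). After quantile normalization 7 were higher and 13 lower in TET1, and 8 and 12 in HOXA9, and with equal array medians 2 and 20, and 2 and 21.

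Of 22 histone chaperones, importers and partners, all measured, 4 were higher and 1 lower in shHMGA2. CHAF1B, a subunit of the assembly factor CAF-1, was higher by 0.39, RBBP4 by 0.38, the H3.3 chaperone HIRA by 0.33 and CABIN1, its partner, by 0.45. DAXX was at -0.24. In TET1 6 were higher and 13 lower, and in HOXA9 8 and 12. CHAF1B was lower there (-1.29 and -1.17), as were ASF1A, which hands H3 and H4 to CAF-1 (-1.26 and -1.33), and the importer IPO4 (-1.18 and -1.14). ATRX, a chromatin remodeller that works with DAXX, was higher (0.94 and 1.05). After quantile normalization 5 were higher and 13 lower in TET1, and 5 and 12 in HOXA9, and with equal array medians 2 and 19, and 2 and 15.

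Replication-independent variant histones, which are made outside S phase too, had 11 of 17 genes measured under the listed symbols, with H1-10 also a member. Another 2 entries, H2BU1 and H4-16, are older symbols of the members H2BC26 and H4C16 and are counted there. MACROH2A2, a macroH2A of silent chromatin, was at 9.43 in shHMGA2, against 7.46 in control (log2 fold change 1.97, limma adjusted p = 1.3e-06). H2AJ was lower by 0.29 (log2 fold change -0.29). In TET1 and in HOXA9 2 were higher and 6 lower. H2AZ2 was at -0.72 and -0.60, and H2AZ1, MACROH2A1, MACROH2A2 and H3-3B were also lower. After quantile normalization 0 were higher and 7 lower in each line.

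Of 47 genes of DNA replication and S phase 46 were measured. In shHMGA2 13 were higher and 1 lower, while 13.6% and 12.6% of all genes were, with CDC25A, a phosphatase that starts S phase (0.59), POLA1, the catalytic subunit of the polymerase that starts new strands (0.50), and the helicase subunit MCM6 (0.49) among them and CCNE2 at -0.23. In TET1 3 were higher and 39 lower, and in HOXA9 3 and 37, with medians of -0.50 and -0.44, while 53.9% of all genes were higher and 23.2% lower in TET1 and 54.0% and 21.6% in HOXA9. The median in shHMGA2 was 0.08. CDC25A was at -1.50 and -1.26 and the licensing factor CDC6 at -1.37 and -1.32. After quantile normalization 2 were higher and 39 lower in TET1, and 2 and 38 in HOXA9. In these arrays, the median histone member was at 0.02 and -0.05 after the same normalization. Between TET1 and HOXA9 0 genes of these 4 lists passed limma.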

How the data were processed

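Per the submitters' processing notes, the log2 values deposited by the authors come from RMA in R 2.11, which corrects background, equalises array distributions and summarises probes. The sources used here do not say whether all arrays were normalized together. Array medians over all probe sets were 7.24 to 7.28 in shHMGA2 and 7.21 to 7.23 in control. They were 7.69 to 7.70 in TET1 and 7.66 to 7.71 in HOXA9. The deposited values of the 2 array sets thus did not share 1 distribution. The table covers 33297 probe sets in 12 columns and has no detection calls. In every probe set, replicate 3 of TET1 and of HOXA9 was an average of the other two (tolerance 1e-06). Both were left out, so 10 arrays remain.

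Symbols came from the platform annotation (19460 probe sets with 1 symbol, 1754 with several, 12083 not listed). Entrez IDs matched RefSeq for 18389 genes and changed 0 symbols. In 769 genes the brightest of several probe sets was used. Group means of all 18417 genes were fitted with limma 3.58.1 (R 4.3.3, functions lmFit and eBayes), with 6 residual and 5.65 prior degrees of freedom. The script was tested on simulated data. Two-sided p-values were adjusted by Benjamini-Hochberg over all genes and read at 0.05, with no filter on dim values. SE and intervals pool the spread of all groups. Where nothing shows separate cultures, p-values measure only the spread between these samples. The number of arrays limits the precision.

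Members, gene lists and tests were chosen with earlier results of these data known. Named members were up to 6 rising and 6 falling per comparison with groups that do not overlap, the brightest of each class, and exceptions to counts. Of each list up to 4 called genes were named. Alternatives were other scalings, a fit on 2 groups, a filter on dim genes, all 12 columns, a replicate block, leaving out each array, and a narrower member list added after the data were seen. Promoter windows came from RefSeq (GRCh38.p14).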

Additional observations from a re-analysis of the deposited data

Results flagged for a closer look

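Probe sets that carry more than 1 histone symbol entered no count above. In a limma fit over all probe sets 5 of these 20 were called higher in shHMGA2, and no such probe set was called lower. The share of all probe sets called in that fit was not counted, so this number has no background beside it. Of the 5, 2 were assigned to H4C15 and H4C14, held identical values and are given once. The probe set of H3C4 and H2AC7, which lie beside H4C4 and H2BC7, differed by 1.53. That of H4C15 and H4C14 was at 9.94 ± 0.13 in shHMGA2, against 8.47 ± 0.23 in control (SD, n = 3 each), a difference of 1.47 with adjusted p = 5.8e-05. The probe sets that name H4C14 or H4C15 alone differed by 0.21 and were not called. That of H3C11 and H3C6 was at 5.70 ± 0.13 in shHMGA2, against 4.72 ± 0.05 in control, both under the dim level, a difference of 0.98 with adjusted p = 2.8e-05. H3C11 alone was lower by 0.23 on the log2 scale. The probe set of H3C10 and H2AC13 was at 9.07 ± 0.10 in shHMGA2, against 8.80 ± 0.07 in control, a difference of 0.27 with adjusted p = 0.030. Which of the named genes each of these read was not tested. In TET1 and HOXA9 against control, which cross the array sets, shared probe sets differed in both directions and are not listed in full. Of those that name H2BC18 and H2BP1, 1 was at -1.11 in TET1 and -1.03 in HOXA9, and another at 0.06 and 0.01. The probe set of H2BC18 and FCGR1BP was at 1.06 and 0.96.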

How the results depend on the processing

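Each named member called in a comparison kept its direction there under all alternatives run, except H3C2 in HOXA9, at -0.010 with equal array medians. Differences that were not called lay near 0, and some changed sign. Of 53 named results, 47 kept their side of the threshold in every alternative run. H2BC7 ranged from 3.93 to 4.13, H4C5 from 2.93 to 3.25, H4C4 from 1.80 to 2.15 and H2BC1 from -1.23 to -1.02. With the averaged columns counted, 15 members were higher in shHMGA2 and 2 in TET1 against HOXA9. Those columns are averages of other replicates and not independent arrays, so the test takes the spread as smaller than it is. The share of all genes called with them is not given here, and these counts are not read as results. With equal array medians 20 were higher and 28 lower in TET1 (median -0.14), and 18 and 27 in HOXA9 (median -0.091). After quantile normalization 23 were lower in TET1, with a median of 0.018, and the median was -0.048 in HOXA9. With dim genes left out, the TET1 median was 0.38. Leaving out 1 array each time gave 8 to 10 members higher and 3 to 6 lower in shHMGA2 (median -0.01 to 0.03), with 3 lower without control replicate 3 or without shHMGA2 replicate 3. It gave 32 to 34 higher and 10 to 15 lower in TET1 (0.30 to 0.38), 29 to 34 and 14 to 17 in HOXA9 (0.27 to 0.39), and 0 and 0 between TET1 and HOXA9 (0.01 to 0.05). Where 1 array was left, it was assumed to vary like the other groups. The replicate numbers were not used to pair the samples. Deviations of same-numbered shHMGA2 and control arrays correlated at 0.16, 0.14 and 0.00. Arrays with different numbers were not compared, so these values cannot decide whether the samples were paired. With a replicate block 9 were higher and 7 lower in shHMGA2, 34 and 12 in TET1, 35 and 16 in HOXA9, and 0 and 0 between TET1 and HOXA9. The causes of the other shifts were not tested.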
